A study of Mus musculus with 8 samples.

Results

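The 10 genes described here carry dietary fat across the absorbing cell of the gut: Cd36, Fabp1, Fabp2, Dgat1, Mttp, Apob, Apoa1, Apoa4, Apoc2 and Apoc3. They were taken by name, and every probe set (a group of short probes for a transcript) that the platform annotation gives to them was read, 18 of the 22690 on the array. In the analysis by gene, in which the probe set with the highest mean stood for its gene, they were 10 of 12393 genes. RNA of intestinal epithelial cells of mice was hybridised to 8 Affymetrix arrays, 2 for each of 4 genotypes. Wild type mice (WT) were set beside mice with 2 copies of the AA allele of IKKα, a kinase in NF-κB signalling (IKKa-AA), mice with tamoxifen-inducible, constitutively active β-catenin (bCATca), and mice that carry both (bCATca_IKKa-AA, the double mutants). Every mouse, WT included, had a mixed genetic background (C57BL/6 x 129Sv x FVB) and received tamoxifen by gavage for 5 days, and cells were taken on day 15 after the first dose. The design text places the stabilised β-catenin, through which Wnt signals reach transcription, in epithelial cells of the intestine. The promoter that drives the recombination, the segment of gut, the age of the mice and whether arrays of a group came from separate animals are not given in the sources used here, so the p-values reflect only how far these samples spread, and outside WT, whose arrays differed in sex, that spread may be technical. The AA allele is not described as limited to the epithelium in the sources used here.

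Enterocytes, the absorptive cells of the villus, take up fatty acids and monoglycerides from digested fat, carry them on small binding proteins, and rebuild triglyceride in the endoplasmic reticulum. Microsomal triglyceride transfer protein loads that triglyceride onto apolipoprotein B, and the particle leaves the cell as a chylomicron with further apolipoproteins on its surface. Crypt cells, which divide under Wnt signalling, make little of this machinery, and it is built up as cells mature on the villus.

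By position in GRCm38.p6, 3 of the genes are neighbours on chromosome 9: Apoa1 (46228630 to 46230469), Apoc3 (46233050 to 46235636) and Apoa4 (46240844 to 46243458). Apoc2 lies on chromosome 7 (19671579 to 19677941), beside the genes of other exchangeable apolipoproteins. Fabp2 (122895072 to 122899506) and Mttp (138089855 to 138143418) are both on chromosome 3. The remaining genes are Cd36 on chromosome 5 (17781690 to 17888959), Fabp1 on chromosome 6 (71199879 to 71205034), Apob on chromosome 12 (7977629 to 8016839) and Dgat1 on chromosome 15 (76502012 to 76512021).

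Promoter sequences from RefSeq (GRCm38.p6) were matched for 8 of the 10 genes, and Apoc3 and Dgat1 had no entry. The 250 bases before the annotated start are shown for Fabp2 and Mttp, which fell with active β-catenin, and for Apoa4, the other gene with a match to the HNF4 motif. HNF4 proteins are nuclear receptors known to bind genes of lipid transport in liver and gut. The motif searched was TGNACTTTG on either strand, and capitals mark a match. The windows are chr3:122894822-122895071 (plus strand) for Fabp2, chr3:138143419-138143668 (minus strand) for Mttp and chr9:46240594-46240843 (plus strand) for Apoa4.
Fabp2: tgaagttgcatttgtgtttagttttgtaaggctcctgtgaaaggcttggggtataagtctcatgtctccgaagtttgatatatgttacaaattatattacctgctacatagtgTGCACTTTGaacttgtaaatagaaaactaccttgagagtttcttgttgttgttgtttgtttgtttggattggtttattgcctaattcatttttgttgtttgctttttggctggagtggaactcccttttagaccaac
Mttp: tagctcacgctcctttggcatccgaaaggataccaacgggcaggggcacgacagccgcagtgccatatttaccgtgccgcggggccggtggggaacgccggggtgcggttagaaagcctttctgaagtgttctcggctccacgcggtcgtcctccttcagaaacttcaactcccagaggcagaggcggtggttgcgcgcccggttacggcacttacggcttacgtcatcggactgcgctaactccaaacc
Apoa4: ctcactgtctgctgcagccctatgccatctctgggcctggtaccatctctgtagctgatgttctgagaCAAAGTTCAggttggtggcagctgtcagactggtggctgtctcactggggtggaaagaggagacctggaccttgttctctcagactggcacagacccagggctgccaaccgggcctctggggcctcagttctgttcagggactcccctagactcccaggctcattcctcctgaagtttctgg
In Fabp2 the match reads TGCACTTTG and lies at -137 to -129, where -1 is the base before the gene start. In Apoa4 it reads CAAAGTTCA, on the opposite strand, at -182 to -174. The motif was found in 2 of 8 promoters of these genes and in 392 of 32851 promoters in the table (1.19%). The CDX motif TTTATNG, named for homeobox factors of the intestine, was found in 4 of 8 promoters (Apob, Apoc2, Fabp1 and Fabp2) and in 9.81% of all. None of the 8 windows held the GATA motif AGATAA (9.99% of all) or the TCF motif CTTTGAT (3.21%), both searched on both strands. Fabp2 held a match to both HNF4 and CDX, and these did not overlap. These matches describe letters in a window and not binding.

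Levels are log2 intensities made from the deposited linear values, differences are between log2 group means with the model's standard error (SE), and each group is 2 arrays. A gene was called changed at an adjusted p under 0.05 over all 12393 genes (limma, Benjamini-Hochberg). Comparisons with WT share the same WT arrays, so their values are given side by side and are not independent of each other. Median intensity was 50.9 to 53.8 on the 8 arrays, and the summed linear intensity of 8 epithelial markers (Epcam, keratins and others) was 32480.3 to 33964.3 in WT, 32863.5 to 36904.8 in IKKa-AA, 36253.0 to 36641.6 in bCATca and 35229.2 to 36479.4 in double mutants. Of these markers Krt18 was called higher in bCATca against WT (1.17, adjusted p 0.00304), and none was called lower. The WT arrays differed in sex, since Xist read 9.18 on WT replicate 1 and at most 4.03 on the other arrays, so mice of both sexes stand in that group. The 3′ control probe set for 18S ribosomal RNA read 11.31 and 11.69 on the WT arrays and 11.77 to 12.39 on the other arrays. The middle one read 10.065 and 10.68 on the WT arrays and 10.76 to 11.49 on the others. The 5′ one read 9.66 and 10.74 on the WT arrays and 10.58 to 11.43 on the others. WT stood apart by the 3′ and middle probe sets and not by the 5′ one. The part of these levels in the results below was not tested.

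With active β-catenin alone, 3 of the fat absorption genes fell against WT: Apoc3, an apolipoprotein of the particle surface, by 5.30-fold, Mttp, which loads lipid, by 1.52-fold, and Fabp2, which binds fatty acids, by 1.59-fold. The other genes, among them Fabp1 and the other apolipoproteins, did not pass the test. No gene of the 10 was called higher. The 3 called lower are 3 of 10 where 3.55% of all genes tested were called lower. Brighter genes were called more often: in either direction, 14.1% in a fit of genes above the median level, against 9.29% of all. The same 3 were called in that fit. All 10 differences were below 0, as were 6075 of all 12393, with a median of -0.55 against 0.01 over all genes tested. On 8 of the 10 genes both bCATca arrays lay below both WT arrays, which was so for 29.7% of all genes, and Apob and Apoc2 were the exceptions. At an unadjusted p under 0.05 there were 6 genes lower, against 12.5% of all genes. Of the 18 probe sets, 3 were called lower in the fit of all probe sets, against 2.97% of those tested, and they belong to Apoc3, Mttp and Cd36. In bulk RNA, fewer cells of a type and less RNA per cell cannot be told apart.

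**Figure D1:**
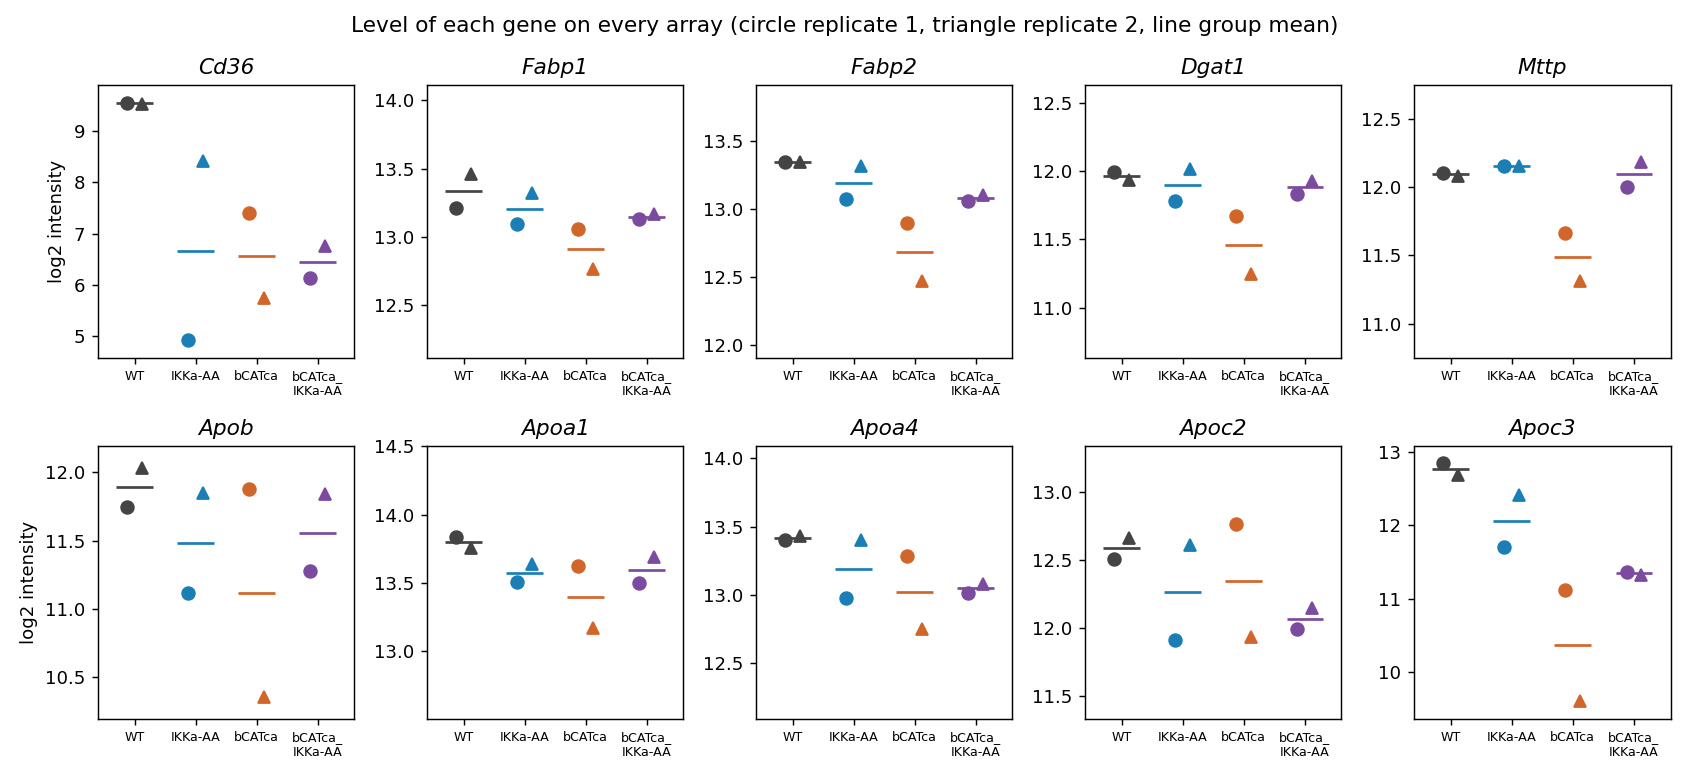
Level of each of the 10 genes on every array. The y axis is log2 intensity, with its own range in each panel, the x axis is the genotype, circles are replicate 1, triangles replicate 2 and lines group means. Apoc3, Mttp and Fabp2 have both bCATca points below both WT points, and Cd36 has WT points at 9.56 and 9.53 and an IKKa-AA point at 4.92.

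Cd36 encodes a scavenger receptor of the brush border that takes up long-chain fatty acids. It read 9.56 and 9.53 on the WT arrays, 4.92 and 8.41 on the IKKa-AA arrays, 7.40 and 5.74 on the bCATca arrays, and 6.14 and 6.76 on the double mutant arrays. Every array with an altered genotype was below both WT arrays, and the IKKa-AA arrays lay farther apart (SD 2.47) than those of the other groups (SD 0.02 for WT, 1.17 for bCATca, 0.44 for double mutants). Its differences from WT were -2.87 in IKKa-AA, -2.97 in bCATca and -3.09 in double mutants, each with an SE of 0.97. None was called (adjusted p 0.358, 0.0872 and 0.157), and the order of the 3 lower groups is within their spread. The call for Cd36 turned on the IKKa-AA arrays, which enter the shared estimate of the spread. Without both, a fit chosen after seeing the data, the bCATca difference of Cd36 passed (adjusted p 0.00464), as did 15.2% of all genes. Without IKKa-AA replicate 2 the IKKa-AA difference was -4.62, and without IKKa-AA replicate 1 it was -1.13.

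Cd36 has 3 probe sets. Of these, 1423166_at, whose values are given above, and 1450883_a_at put the 8 arrays in the same order. Probe set 1450883_a_at read 9.45 and 9.24 on the WT arrays, 4.70 and 8.10 on the IKKa-AA arrays, 6.85 and 5.01 on the bCATca arrays, and 5.55 and 6.46 on the double mutant arrays. Probe set 1450884_at read 6.73 and 6.29 in WT and no more than 4.23 in bCATca and double mutants. This is close to 4.03, used here as a guide to background. The guide is the highest reading of Xist outside WT replicate 1, and Y-linked genes on that array read lower, 2.02 to 2.56. In the fit of all 22690 probe sets the dim 1450884_at was the one of Cd36 that passed in bCATca against WT (-2.93, adjusted p 0.0220). The others had adjusted p of 0.0960 and 0.0710.

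**Figure D2:**
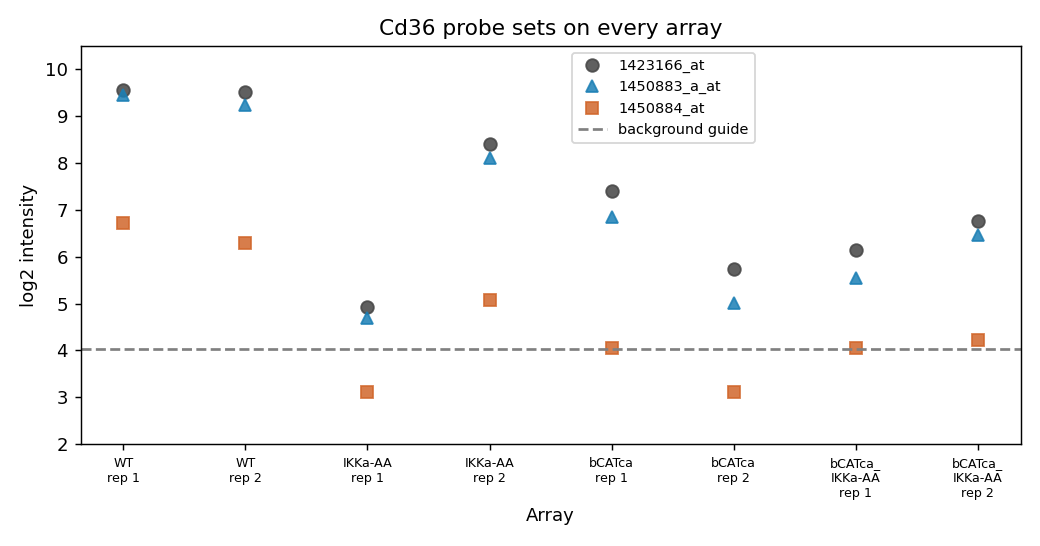
The 3 probe sets of Cd36 on every array. The y axis is log2 intensity, the x axis lists the 8 arrays, and the dashed line is the background guide at 4.03. Each probe set is highest on the WT arrays, and IKKa-AA replicate 1 is at or near the bottom for all of them.

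Endothelium, macrophages and fat cells also make Cd36, so their markers were read beside it. Of 10 endothelial markers 4 (Pecam1, Tek, Emcn and Vwf) had a mean at or under the background guide, and the summed intensity of the list was 394.3 to 409.4 in WT, 310.9 to 339.9 in IKKa-AA, 389.7 to 398.9 in bCATca and 336.4 to 398.0 in double mutants. Of 11 myeloid markers 5 (Cd68, Itgam, Fcgr1, Mrc1 and Ccr2) were near background, with sums of 689.6 to 708.3 in WT, 574.3 to 788.7 in IKKa-AA, 820.0 to 933.8 in bCATca and 512.9 to 562.2 in double mutants. Of 7 adipocyte markers 4 (Adipoq, Lep, Lpl and Fabp4) were near background, and the list summed to 871.0 to 1226.1 in WT, 359.8 to 613.0 in IKKa-AA, 186.7 to 334.3 in bCATca and 551.1 to 566.5 in double mutants. The adipocyte list holds Pck1 and Cidec, which enterocytes also express and which were its brightest members in WT. These were its 2 genes called lower in bCATca against WT, where 3.55% of all genes were. In that comparison Vwf (near background) and Cd14 of the other 2 lists were called higher, as 5.74% of all genes were. Cd14 was also called higher in double mutants against WT, as were 122 of all 12393 genes.

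Fabp1 and Fabp2 encode the liver-type and intestinal fatty acid binding proteins, which carry fatty acids through the cytoplasm of the enterocyte. Fabp2 read 13.35 and 13.35 on the WT arrays, 13.07 and 13.31 on the IKKa-AA arrays, 12.89 and 12.47 on the bCATca arrays, and 13.06 and 13.10 on the double mutant arrays. The bCATca arrays were the lowest and the WT arrays the highest, without overlap. Fabp2 fell by 0.66 (SE 0.17, 95% interval -1.06 to -0.27, adjusted p 0.0492) in bCATca against WT. This call is at the edge of the threshold, and leaving out either WT array, bCATca replicate 2 or either double mutant array ended it (adjusted p up to 0.245). The promoter of Fabp2 is shown above with its HNF4 match in capitals. Its CDX match, TTTATTG at -65 to -59, is not marked there.

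Fabp1 read 13.21 and 13.46 on the WT arrays, 13.10 and 13.32 on the IKKa-AA arrays, 13.06 and 12.77 on the bCATca arrays, and 13.13 and 13.17 on the double mutant arrays. Both bCATca arrays were below every other array, by a small margin for replicate 1, both double mutant arrays were below both WT arrays, and the IKKa-AA arrays overlapped WT. The bCATca difference from WT was -0.42 (SE 0.17, adjusted p 0.134) and was not called. The readings of both genes were near the top of the scale, the brightest probe set of each array reading 13.61 to 13.84.

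Dgat1 encodes an enzyme that adds the last acyl chain in triglyceride synthesis. It read 11.99 and 11.93 on the WT arrays, 11.78 and 12.02 on the IKKa-AA arrays, 11.67 and 11.24 on the bCATca arrays, and 11.83 and 11.93 on the double mutant arrays. Both bCATca arrays were below all others, and the remaining groups overlapped or nearly so. Its bCATca difference from WT was -0.50 (SE 0.17, adjusted p 0.100), which was not called.

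Mttp encodes the large subunit of microsomal triglyceride transfer protein, which loads lipid onto nascent apolipoprotein B. It read 12.11 and 12.08 on the WT arrays, 12.15 and 12.15 on the IKKa-AA arrays, 11.66 and 11.31 on the bCATca arrays, and 12.002 and 12.185 on the double mutant arrays. The bCATca arrays stood alone at the bottom, and the other 6 arrays lay between 12.002 and 12.185. Mttp fell by 0.60 (SE 0.16, 95% interval -0.97 to -0.24, adjusted p 0.0499) in bCATca against WT, and leaving out any of the same 5 arrays as for Fabp2 ended the call (adjusted p up to 0.249). In double mutants its difference from WT was 0.0003 with an interval of -0.36 to 0.36. Against bCATca the double mutants were at 0.60 (SE 0.16, interval 0.24 to 0.97), which did not pass over all genes (adjusted p 0.122, unadjusted p 0.00460). Its other probe set, 1419400_at, gave -0.78 (adjusted p 0.0317) for bCATca against WT and 0.70 (adjusted p 0.112) for double mutants against bCATca in the fit of all probe sets.

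Apob encodes the structural protein of the chylomicron. It read 11.75 and 12.03 on the WT arrays, 11.12 and 11.85 on the IKKa-AA arrays, 11.88 and 10.36 on the bCATca arrays, and 11.28 and 11.84 on the double mutant arrays. The groups overlapped, and bCATca replicate 2 was by far the lowest array. The bCATca difference of -0.77 (SE 0.46, adjusted p 0.293) was -0.01 without that array.

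Among the exchangeable apolipoproteins, which sit on the surface of the particle, Apoc3 differed most. Its product inhibits lipoprotein lipase and the uptake of lipoprotein remnants. Apoc3 read 12.84 and 12.69 on the WT arrays, 11.70 and 12.41 on the IKKa-AA arrays, 11.12 and 9.60 on the bCATca arrays, and 11.37 and 11.33 on the double mutant arrays. No group overlapped the next: WT was highest, then IKKa-AA, the double mutants and bCATca, although neighbouring groups were not called different from each other. Apoc3 fell by 2.41 (SE 0.43, 95% interval -3.40 to -1.42, adjusted p 0.0152) in bCATca against WT, from 12.77 ± 0.11 to 10.36 ± 1.07 (SD, n = 2). It passed in 6 of 8 fits with an array left out, and without either WT array the adjusted p was 0.0901 or 0.0909. Its difference was -1.65 without bCATca replicate 2 and -3.16 without bCATca replicate 1. The double mutants were at -1.42 from WT (SE 0.43, interval -2.41 to -0.43, adjusted p 0.146) and IKKa-AA at -0.71 (SE 0.43, adjusted p 0.530), and neither was called. Leaving out either bCATca array, both of which enter the shared estimate of the spread, brought the double mutant difference past the threshold (adjusted p 0.0486).

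Its neighbours on chromosome 9, Apoa1 and Apoa4, were not called in bCATca. Apoa1, which encodes the main protein of high density lipoprotein, read 13.84 and 13.76 on the WT arrays, 13.51 and 13.64 on the IKKa-AA arrays, 13.62 and 13.17 on the bCATca arrays, and 13.50 and 13.69 on the double mutant arrays. All arrays of altered genotype were below WT, and those 3 groups overlapped. The bCATca difference was -0.40 (SE 0.18, adjusted p 0.171). The readings of Apoa1 include the brightest on an array, and 3 of its 4 probe sets are of a class (_x_at) whose probes may bind other transcripts.

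Apoa4, a chylomicron protein secreted by the gut after a fatty meal, read 13.40 and 13.43 on the WT arrays, 12.98 and 13.40 on the IKKa-AA arrays, 13.28 and 12.75 on the bCATca arrays, and 13.01 and 13.08 on the double mutant arrays. Its bCATca difference was -0.40 (SE 0.21, adjusted p 0.233), and its double mutant difference -0.37 (adjusted p 0.403). These come from an _x_at probe set, and the other one, 1417761_at, gave -0.71 for bCATca (SE 0.27, adjusted p 0.141 over all probe sets). Apoc2, the activator of lipoprotein lipase, read 12.51 and 12.66 on the WT arrays, 11.91 and 12.61 on the IKKa-AA arrays, 12.76 and 11.93 on the bCATca arrays, and 11.99 and 12.15 on the double mutant arrays. Both double mutant arrays were below WT, and bCATca replicate 1 was the highest array of all. Apoc2 was the gene of the 10 with the smallest bCATca difference (-0.24, SE 0.30, adjusted p 0.630), and its sign turned to 0.18 without bCATca replicate 2.

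**Figure D3:**
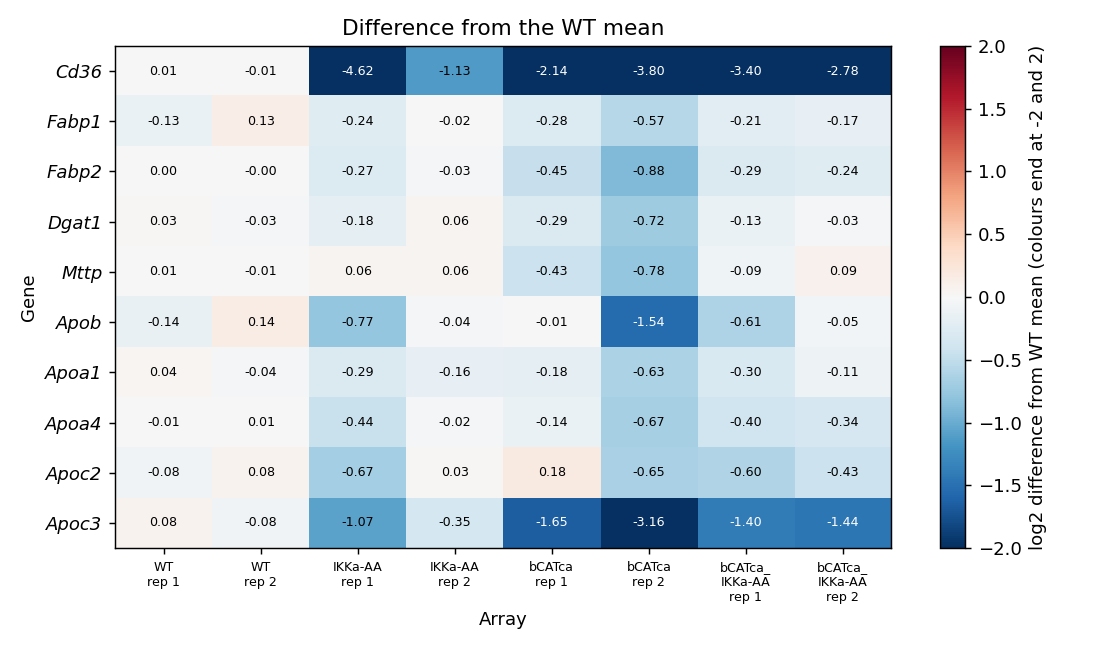
Difference of each gene from the WT mean on every array. Cells give log2 differences, with rows for genes in order of role and columns for arrays, and colours end at -2 and 2. The column of bCATca replicate 2 has the lowest value of 8 of the 10 genes, and that of IKKa-AA replicate 1 the lowest of Cd36 and Apoc2.

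Arrays of a group did not stand at the same level. The bCATca replicate 1 array was above replicate 2 for all 10 genes, with a median gap of 0.49, and 3 genes (Apob, Apoc3 and Cd36) differed by more than 2-fold, which was so for 1.35% of all genes. Replicate 2 of that group was the lowest array of all 8 for 8 of the 10 genes, against 17.4% of all genes. In IKKa-AA, replicate 1 was the lower array for 9 of 10 genes, with a median gap of -0.33, and Cd36 differed by more than 2-fold, which was so for 3.16% of all genes. In WT and in double mutants no gene of the 10 reached a 2-fold gap, which 0.76% and 0.67% of all genes did. The median difference of the 10 genes from the WT mean was -0.28 and -0.75 on the bCATca arrays, -0.37 and -0.03 on the IKKa-AA arrays, and -0.35 and -0.21 on the double mutant arrays. Without bCATca replicate 2 the bCATca differences from WT were -0.14 for Apoa4, -0.18 for Apoa1, -0.28 for Fabp1 and -0.29 for Dgat1.

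For IKKa-AA against WT none of the 10 genes was called, where 1 gene of 12393 was (0.00807%). At an unadjusted p under 0.05 it was Cd36 alone of the 10, against 11.7% of all genes. The median difference was -0.23, and 9 of 10 were below 0, as were 6296 of all 12393 genes. Mttp (0.06, adjusted p 0.897) was the exception. Both IKKa-AA arrays were below both WT arrays for 5 genes (Apoa1, Apoa4, Apoc3, Fabp2 and Cd36) against 24.7% of all genes, and above them for Mttp, against 21.2%.

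The double mutants also had no gene of the 10 called against WT, where 1.44% of all genes were called. At an unadjusted p under 0.05 there were 2, Apoc3 and Cd36, both lower, against 16.9% of all genes in either direction. Their median difference was -0.30, and both arrays were below both WT arrays for 8 of 10 genes (23.7% of all genes), with Mttp and Apob overlapping WT. In a fit of these groups alone, Apoc3 (adjusted p 0.00149) and Cd36 (adjusted p 0.000292) passed, as did 6.58% of all genes. Without both IKKa-AA arrays Cd36 passed in double mutants (adjusted p 0.00601), as did 5.33% of all genes.

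**Figure D4:**
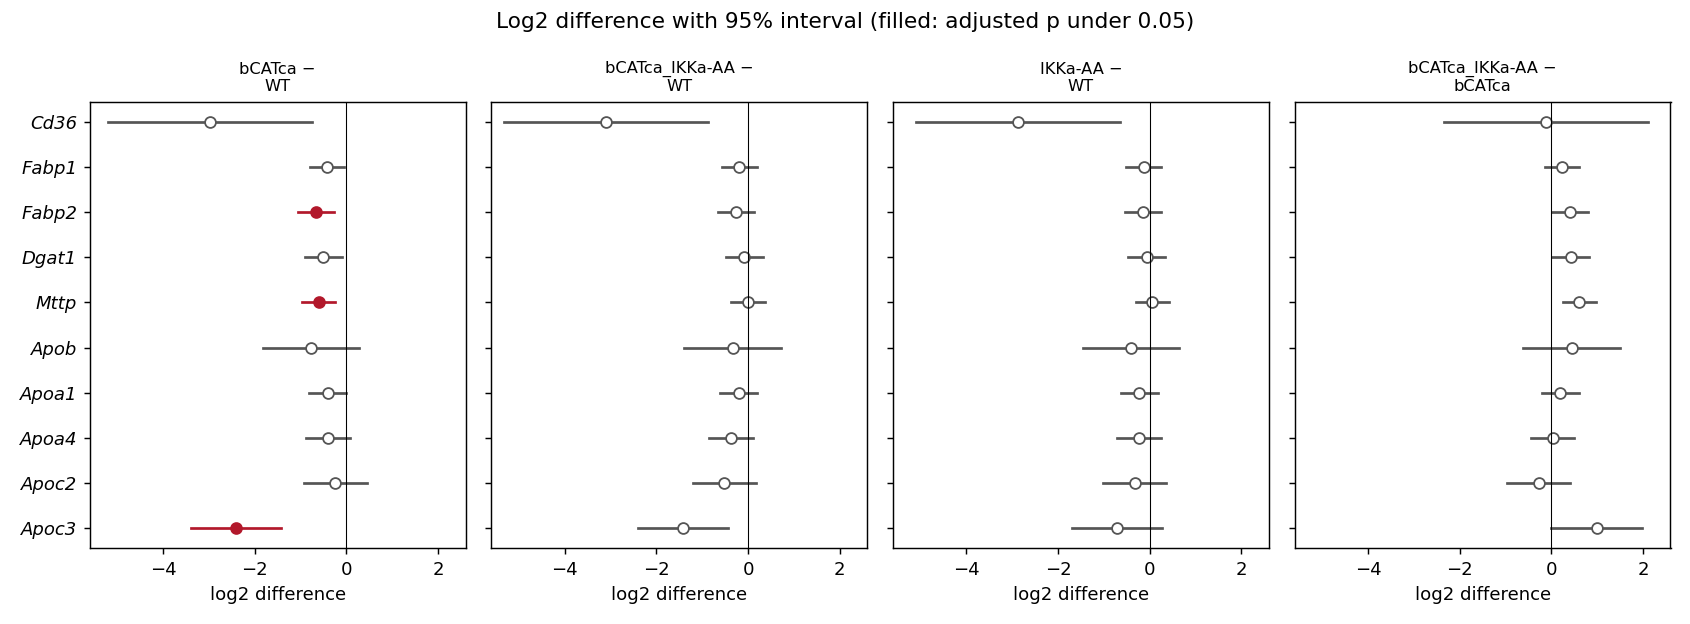
Difference between groups for each gene in 4 comparisons. The x axis is the log2 difference, points are estimates, bars are 95% intervals, and filled points passed an adjusted p of 0.05. Filled points are Apoc3, Mttp and Fabp2 in bCATca against WT, and Cd36 has the widest intervals in each panel.

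Double mutants were set against bCATca mice to ask what the AA allele changes when β-catenin is active. No gene of the 10 was called, where 1.21% of all genes were, and at an unadjusted p under 0.05 there were 3 (Mttp, Fabp2 and Dgat1), all higher in double mutants, against 14.8% of all genes in either direction. Differences were above 0 for 8 of 10 genes, as for 6273 of all 12393, with a median of 0.32. Both double mutant arrays were above both bCATca arrays for Apoc3, Mttp, Fabp1, Fabp2 and Dgat1, 5 of 10 where 22.6% of all genes did so. Apoc3 was at 0.99 (SE 0.43, adjusted p 0.340), Dgat1 at 0.42 (SE 0.17, adjusted p 0.308) and Fabp2 at 0.40 (SE 0.17, adjusted p 0.335). Without bCATca replicate 2 these were 0.23, 0.21 and 0.19. Cd36 had a difference of -0.12 with an interval of -2.35 to 2.10, which holds large changes either way. Since the low bCATca arrays serve both comparisons, a difference of opposite sign here is not separate evidence for the fall against WT.

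Set against IKKa-AA, the double mutants had none of the 10 called (0.0565% of all genes were) and none at an unadjusted p under 0.05 (6.93%). Apoc3 was at -0.71 (SE 0.43, adjusted p 0.831), the one gene whose arrays did not overlap, those of double mutants being lower, as 13.8% of all genes were. The interaction, the β-catenin difference on the AA background minus that on the normal one, was also not called for any of the 10 (0.0888% of all genes were), and Apoc3 and Mttp had an unadjusted p under 0.05, against 15.7% of all genes. Its 10 values were above 0, as were 6233 of all 12393, with a median of 0.52. The same arrays, the low bCATca ones among them, enter all 10, so these are not separate readings. Apoc3 had 1.70 (SE 0.61, adjusted p 0.251), Mttp 0.54 (SE 0.22, adjusted p 0.290), Fabp2 0.55 (SE 0.24, adjusted p 0.320) and Cd36 2.75 (SE 1.37, adjusted p 0.362). Without IKKa-AA replicate 2 the interaction of Cd36 was 4.49, and without IKKa-AA replicate 1 it was 1.00. These tests do not show that the effect of β-catenin differs between the AA and the normal background for any of the 10 genes.

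Other genes of fat handling were read from lists of their roles. Beside the counts in bCATca against WT, 3.55% of all genes were called lower and 5.74% higher. In bCATca against WT, fatty acid uptake and sterol transport had 2 of 9 measured genes lower and none higher: Slc27a4, the fatty acid transport protein of the enterocyte, fell by 0.79 (adjusted p 0.0188) and Slc27a2, an acyl-CoA synthetase for very long chains, fell by 2.38 (adjusted p 0.0218). Chylomicron assembly and lipid droplets had 2 of 14 lower and none higher. Cidec, a lipid droplet protein, fell by 1.32 (adjusted p 0.0231), and Sar1b, the GTPase of the vesicles that carry chylomicron precursors, fell by 0.73 (adjusted p 0.0347).

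In synthesis of fatty acids and triglyceride, 6 of 14 were higher and 1 lower in bCATca against WT, with a median of 0.42, where 5.74% of all genes were called higher. The list did not move one way, with 8 differences above 0 and 6 below. Its summed intensity was 14046.0 to 14489.8 in WT and lower, 10549.5 to 11974.8, in bCATca. Scd1, a stearoyl-CoA desaturase, rose by 2.08 (adjusted p 0.00671), its WT readings of 4.21 and 3.87 being close to background, and Elovl5, an elongase of polyunsaturated fatty acids, rose by 1.00 (adjusted p 0.0270). Dgat2, the other enzyme for the last step of triglyceride synthesis, fell by 1.34 (adjusted p 0.00942), beside the -0.50 of Dgat1. Of 11 other apolipoproteins 2 were higher and none lower. Clu, a stress-induced secreted chaperone also named apolipoprotein J, rose by 4.00 (adjusted p 0.000862). Apoe rose by 1.21 (adjusted p 0.0184), its WT readings of 4.51 and 4.92 being not far above the background guide. Among 9 other fatty acid and retinol binding proteins none was called, and the smallest p was that of the peroxisomal lipid transfer protein gene Scp2 (-1.05, adjusted p 0.0583).

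Of 20 regulators of lipid genes, 5 were lower in bCATca and none higher, with a median of -0.13, where 3.55% of all genes were lower. Nr1h3, the sterol-sensing receptor LXRα, fell by 1.08 (adjusted p 0.00929), Ppara, a fatty acid receptor, fell by 1.47 (adjusted p 0.0176), and the nuclear receptor Nr5a2 fell by 0.72 (adjusted p 0.0306). For the receptors of the HNF4 motif, chosen after their values were seen, Hnf4g fell by 1.03 (adjusted p 0.0311) and Hnf4a was at 0.02 (interval -0.33 to 0.36).

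**Figure D5:**
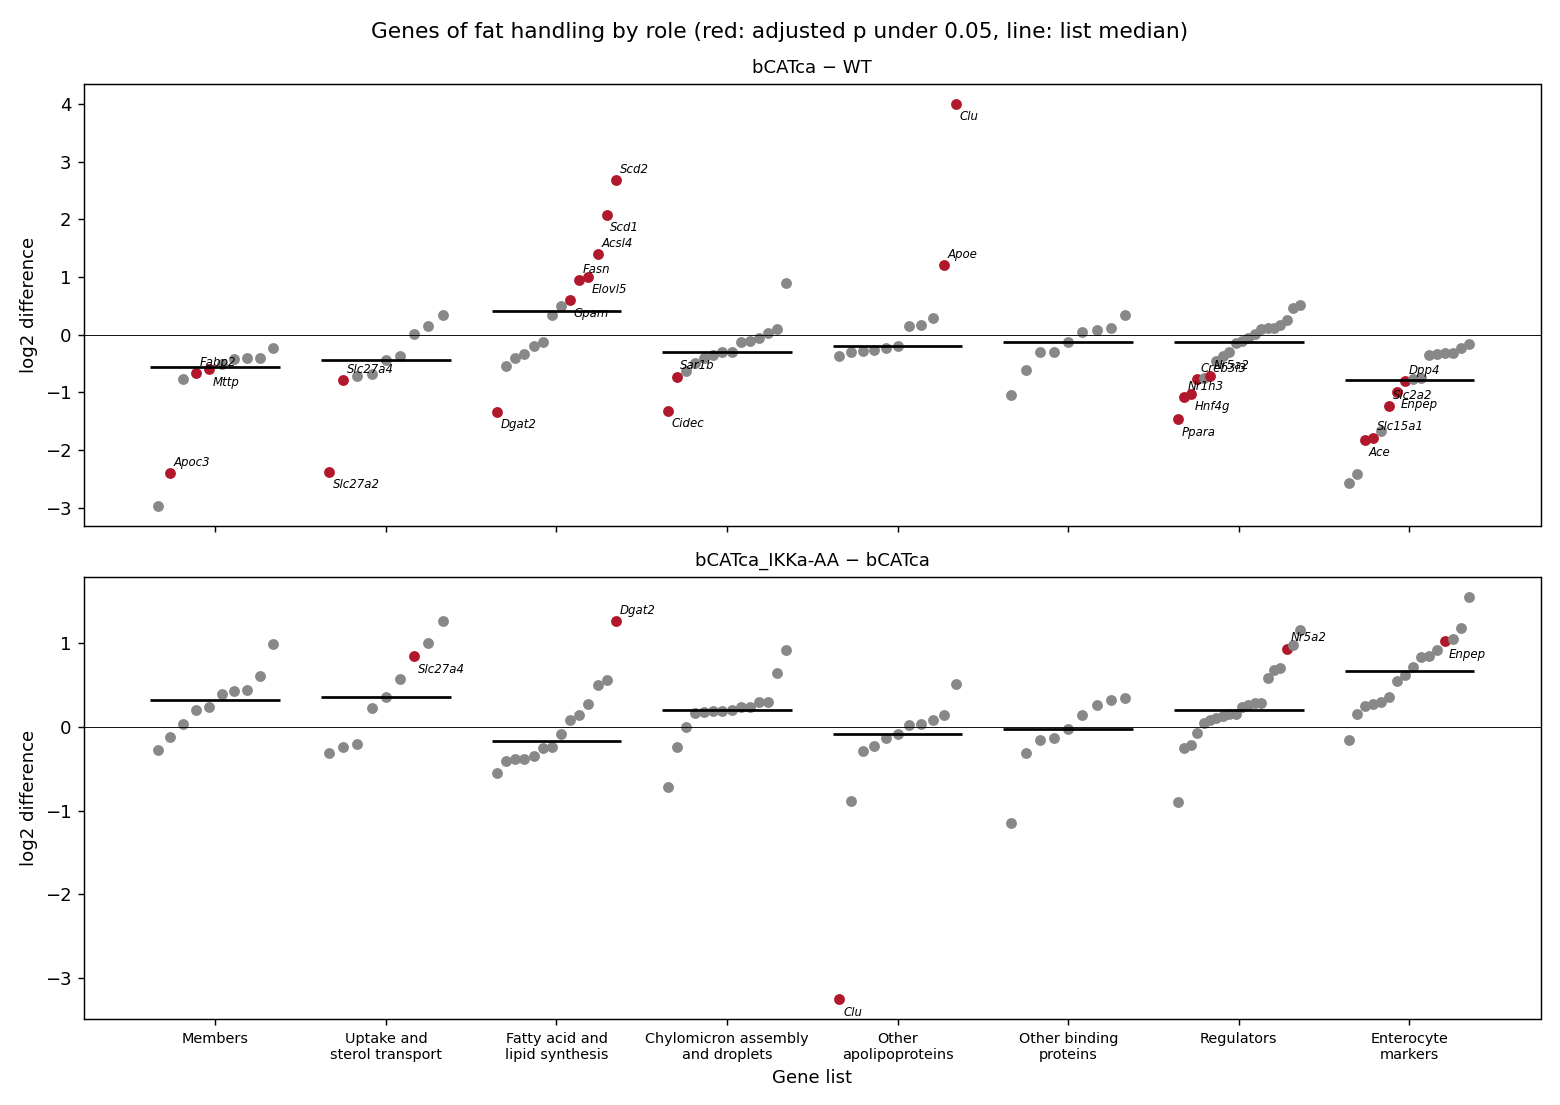
Genes of fat handling by role, bCATca against WT above and double mutants against bCATca below. The y axis is the log2 difference, each point is a gene, red points passed an adjusted p of 0.05 and are named, and lines are list medians. The 10 genes and the enterocyte markers have medians of -0.55 and -0.79 in the upper panel and 0.32 and 0.67 in the lower one.

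Markers of the mature enterocyte outside fat transport were also read in bCATca against WT. Of all genes, 3.55% were called lower there, and 6075 of 12393 had a difference below 0. All 16 measured had a difference below 0, with a median of -0.79, and 5 were called: the peptidase Enpep fell by 1.00 (adjusted p 0.00610), the peptide transporter Slc15a1 by 1.79 (adjusted p 0.00942) and the glucose transporter Slc2a2 by 1.24 (adjusted p 0.0152), with Dpp4 and Ace. Their summed intensity was 54525.0 to 61521.3 in WT, 49267.1 to 61326.6 in IKKa-AA, 32139.4 to 39400.9 in bCATca and 46464.6 to 53398.7 in double mutants. That of the 10 fat absorption genes was 71239.4 to 72886.5, 54603.7 to 68396.7, 39809.1 to 58337.1 and 54353.0 to 59307.6 in the same order, so the lowest value of each sum was on a bCATca array. Of 9 crypt and proliferation markers 3 were higher in bCATca (Axin2 by 2.02, Cd44 by 2.29 and Ascl2 by 1.37). None was lower, and 5.74% of all genes were called higher. The part of the mix of mature and crypt cells in the levels of the 10 genes was not tested.

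Against bCATca, the double mutants had 1 gene higher in each of 4 of these lists: Slc27a4 by 0.84 (adjusted p 0.0440), Dgat2 by 1.27 (adjusted p 0.0362), Nr5a2 by 0.94 (adjusted p 0.0382) and Enpep by 1.02 (adjusted p 0.0203). Clu fell by 3.25 (adjusted p 0.0134). Of all 12393 genes, 50 were called higher in double mutants against bCATca and 100 lower. Neither the IKKa-AA nor the double mutant comparison with WT had a gene called in the lists of uptake, synthesis, assembly, apolipoproteins, binding proteins, regulators or enterocyte markers. Of all genes, 0.00807% were called in IKKa-AA and 1.44% in double mutants. Of the 9 crypt and proliferation markers, 2 were called higher in double mutants against WT, as were 122 of all 12393 genes.

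Markers of other cells and of gut position were read on the same arrays. The summed intensity of 11 T and intraepithelial lymphocyte markers was 7268.0 to 9407.6 in WT, 2171.0 to 8265.5 in IKKa-AA, 4391.5 to 5887.1 in bCATca and 869.8 to 1154.3 in double mutants, and 1 of them (Cd2) was near background. In IKKa-AA its lower value was on replicate 1, the array lowest for Cd36 and Apoc2. Of these 11 markers 5 were called lower in double mutants against WT, with the smallest p for Cd7, where 57 of all 12393 genes were. Of 7 markers of the proximal small intestine, whose sum was 22122.5 to 28346.5 in WT, 9969.3 to 25505.7 in IKKa-AA, 8383.2 to 14474.6 in bCATca and 11479.6 to 13896.5 in double mutants, none was near background. The members of that list did not move one way in bCATca against WT: 4 were below 0, with Cyp2c29 called lower (-5.63, adjusted p 0.0421), and 3 above 0, with Cybrd1 called higher (2.36, adjusted p 0.0210), Slc40a1 at 0.43 and Gata4 at 0.11. The ileal markers Fabp6, Slc10a2 and Fgf15 were near background on average. The summed intensity of 6 B and plasma cell markers was 1723.9 to 2142.8 in WT, 642.7 to 4132.8 in IKKa-AA, with the lower value again on replicate 1, 3448.4 to 4449.1 in bCATca and 476.2 to 477.4 in double mutants. Of these, 2 (Igha and Ms4a1, the latter near background) were called lower in double mutants against bCATca, where 100 of all 12393 genes were. In bCATca against WT, Sdc1 was called higher, as 5.74% of all genes were. The part of lymphocytes, plasma cells and gut position in the levels of the 10 genes was not tested.

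As a description, the genes whose levels followed the called genes most closely over the 8 arrays, among 6196 genes above the median level, were found by Pearson's r. For Apoc3 they were Osbpl6 (0.991), Sar1b (0.990) and Amn (0.985). For Fabp2 they were Mme (0.993), Dhrs11 (0.991) and Fmo5 (0.989), and for Mttp they were Aldh4a1 (0.990), Atp5b (0.989) and Gna13 (0.988). Apoc3 and Fabp2 had an r of 0.980 with each other. The 8 points share the group differences and the gap between the bCATca arrays.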

How the data were processed

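The authors deposited linear intensities, one value per probe set and array. RMA and affy appear in the submitters' processing notes, without versions. The labels' protocols give 200 ng of total RNA per sample and biotin labelling. The design had foreseen either scale, and log2 was taken of every intensity. Of 22690 probe sets, 20380 had 1 gene symbol, 691 several, 1555 none, and 64 were controls. The probe set with the highest mean stood for a gene (12393 genes), and all probe sets were also fitted. The model was limma's (version 3.58.1, R 4.3.3), a mean for each group over 8 arrays followed by eBayes, with 4 residual and 4.28 prior degrees of freedom. P-values were adjusted by Benjamini-Hochberg over all genes, with a threshold of 0.05. The fit was tested on simulated data. The number of arrays limits the precision. Python 3.11.15 with pandas 2.3.3, numpy 2.4.6 and matplotlib 3.10.9 made tables and figures. Promoters are RefSeq's (GRCm38.p6).

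The 10 genes and all lists were chosen with earlier results of these data known. All 10 genes are named. In lists of fat handling, enterocyte and crypt markers, up to 3 genes called in bCATca against WT are named, by smallest p. Where none passed, the gene with the smallest p is named, besides any named as chosen after their values were seen. For lists of other cells and gut position, called genes are named only in part. Dpp4, Ace and the genes near background complete short counts. Alternatives were quantile and cyclic loess normalisation, genes above the median level, the mean of a gene's probe sets, all probe sets, eBayes with trend and robust options, fits of the compared groups alone, 16 added to the intensity, a replicate block, and leaving out each array. IKKα's own transcript was not analysed here.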

Additional observations from a re-analysis of the deposited data

How the results depend on the processing

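Of the 10 genes, 3 were called in bCATca against WT (Apoc3, Mttp and Fabp2, all lower). Apoc3 alone was called, a count of 1, in the fit of all probe sets, with each gene read from its brightest probe set, and with the replicate number as a block (replicate block). The replicate numbers are not known to pair the samples. Deviations between replicates correlated between -0.448 and 0.150 across groups, which cannot decide it, since arrays handled together may carry different numbers. With the block Mttp had an adjusted p of 0.0825 and Fabp2 of 0.0822. Leaving out each array gave counts from 0 to 4: 0 without either WT array, 1 without bCATca replicate 2 or either double mutant array, and 4, with Cd36, without either IKKa-AA array. In double mutants against WT, with 0 called, the fit of these groups alone called 2, where 6.58% of all genes were called. The fit without both IKKa-AA arrays, chosen after seeing the data, called 1, where 5.33% of all genes were. Where an array left out leaves a group with 1, that array is assumed to vary like the others. Leave-one-out counts were 0 to 1 there, in IKKa-AA against WT and in the interaction, and 0 to 0 in the other comparisons. Signs that turned belonged to differences that were not called: Apoc2 in bCATca against WT (-0.65 to 0.18 over the arrays left out), Mttp in double mutants against WT (-0.0223 with cyclic loess, -0.0389 as the mean of its probe sets, -0.091 to 0.0915 over arrays left out), Cd36 in double mutants against bCATca (0.17 as the mean of its probe sets, -0.95 to 0.71) and against IKKa-AA (-1.97 to 1.52). Fabp2 also missed the threshold with quantile normalisation (0.0505), cyclic loess (0.0560) and 16 added (0.05002). Mttp and Fabp2 missed it in the fit of 2 groups (0.0619 and 0.0576), in which Cd36 passed (0.0144), as did 11.8% of all genes. Over all genes, 1151 were called in bCATca against WT, 701 with the block, and 223 to 1885 with an array left out. The causes were not tested. The smallest p-values rest on 2 arrays per group. Some readings lay near background or near the top of the scale, and what this does to the differences was not tested.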
